A study of Mus musculus with 5 samples.

Results

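CBX2 peaks were examined at 10 genes that encode mesodermal and muscle transcription factors of the basic helix-loop-helix (bHLH) family, out of 22380 annotated protein-coding genes. The genes were chosen by family membership, after the Hand2 start had been seen to lie in a peak of the K27M list alone, so the values at Hand2 are a description and no test was made on them. The cells were mouse embryonic fibroblasts (MEFs) in which loxP sites flank part of Eed, a PRC2 subunit gene, and which were isolated from a mid-gestation embryo. Control cells were the parental line. EZHIP cells stably expressed human EZHIP, and K27M cells stably expressed histone H3.3 with lysine 27 replaced by methionine, each from a lentivirus. The study's methods describe selection of transduced cells with the drug puromycin, so both lines may differ from Control in transduction and selection too. All groups carried the floxed Eed allele and descend from the same MEFs. Chromatin was fixed, treated with micrococcal nuclease, solubilized by sonication and precipitated with an antibody against CBX2. Each group had 1 library and 1 deposited list of broad peaks, which held 255 peaks for EZHIP, 289 for Control and 327 for K27M. The files hold positions only, the read depth is unknown, so no difference between lists has a replicate error or a test. Libraries of K27R and EEDnull cells were not analysed here.

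Proteins of the bHLH family bind E-box sequences as dimers, usually with an E protein (Tcf3, Tcf4 or Tcf12), and Id proteins block this by pairing with the E proteins. MyoD (Myod1) and Myf5 commit cells to skeletal muscle, whereas Twist1 and Twist2 keep mesenchymal cells undifferentiated and are typically expressed in fibroblasts. Hand1 and Hand2 act in heart, limb and neural crest derivatives, Tcf21 in the mesenchyme of heart, lung and kidney, Tcf15 in somites, and Tal1 in blood and endothelium. CBX2 is a subunit of Polycomb Repressive Complex 1 (PRC1) that reads the trimethyl mark that PRC2 places on lysine 27 of histone H3, and genes of this kind are commonly held silent by Polycomb in cells that do not use them.

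CBX2 peaks were found at 3 of the 10 genes, Tcf21, Tal1 and Hand2, and at none of the muscle or Twist genes. A peak counted when it overlapped the gene body extended by 5 kb on each side by at least 1 bp. In Control and in EZHIP cells 2 genes had a peak, Tcf21 and Tal1, and in K27M cells 3 genes had one, with Hand2 added. At each of these peaks the annotated 5′ end of the gene lay inside. For reference, 1.49% of all protein-coding genes had a Control peak in the same window, 1.44% an EZHIP peak and 1.78% a K27M peak. The 5′ end lay inside a peak for 0.903% of genes in Control, 0.894% in EZHIP and 1.19% in K27M. Because the family was picked with these lists in view, the excess over these shares is not evidence about the family. Every member peak contained the start of its own gene and of no other protein-coding gene.

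**Figure D1:**
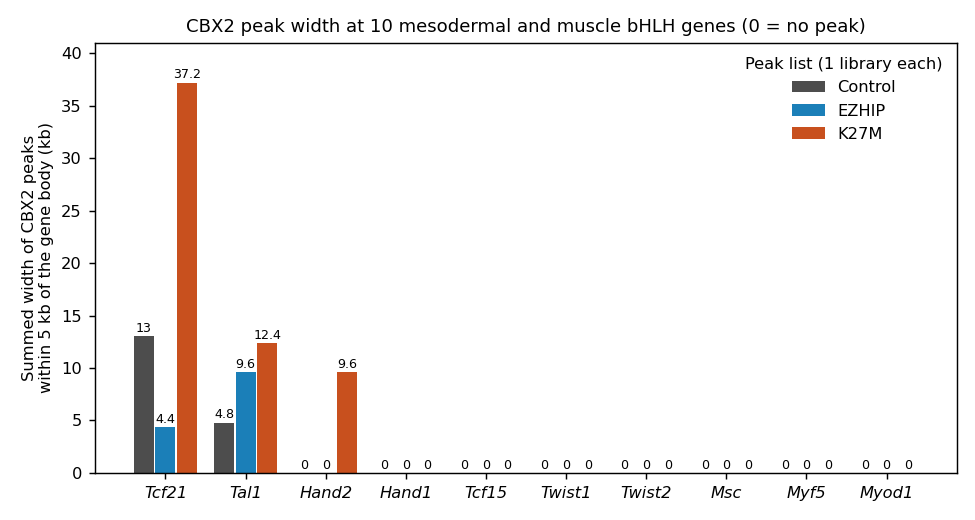
Bars give the summed width, in kb, of the CBX2 peaks within 5 kb of each gene body in the Control, EZHIP and K27M lists, with 1 library each and no error bars. Tcf21 and Tal1 have bars in every list, Hand2 has a bar of 9.6 kb in K27M alone, and the other 7 genes are at 0.

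The 250 bases before the start are shown for the 3 genes with peaks and for the members with the most (Twist2) and the fewest (Myf5) CpG dinucleotides in this stretch, neither of which had a peak. CpG-rich sequence is where mammalian Polycomb complexes are typically recruited. The sequences are from mm9, run 5′ to 3′ toward the gene, and have CpG dinucleotides in capitals.
Tcf21 (chr10:22539935-22540184, minus strand): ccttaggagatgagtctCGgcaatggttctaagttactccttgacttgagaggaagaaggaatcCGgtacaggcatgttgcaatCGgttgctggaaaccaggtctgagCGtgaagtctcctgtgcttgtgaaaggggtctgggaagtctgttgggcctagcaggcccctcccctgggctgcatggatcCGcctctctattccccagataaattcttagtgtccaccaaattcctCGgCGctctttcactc
Tal1 (chr4:114728781-114729030, plus strand): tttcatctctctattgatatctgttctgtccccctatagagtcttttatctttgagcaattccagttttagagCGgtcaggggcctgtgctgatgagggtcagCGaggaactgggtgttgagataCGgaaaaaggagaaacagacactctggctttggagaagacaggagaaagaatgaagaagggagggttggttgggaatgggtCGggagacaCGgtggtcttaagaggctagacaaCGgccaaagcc
Hand2 (chr8:59799530-59799779, plus strand): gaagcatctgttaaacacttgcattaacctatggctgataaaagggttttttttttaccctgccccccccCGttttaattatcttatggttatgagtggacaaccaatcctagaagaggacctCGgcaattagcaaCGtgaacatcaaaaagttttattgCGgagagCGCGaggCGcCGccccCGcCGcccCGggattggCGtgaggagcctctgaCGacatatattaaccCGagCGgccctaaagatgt
Twist2 (chr1:93697788-93698037, plus strand): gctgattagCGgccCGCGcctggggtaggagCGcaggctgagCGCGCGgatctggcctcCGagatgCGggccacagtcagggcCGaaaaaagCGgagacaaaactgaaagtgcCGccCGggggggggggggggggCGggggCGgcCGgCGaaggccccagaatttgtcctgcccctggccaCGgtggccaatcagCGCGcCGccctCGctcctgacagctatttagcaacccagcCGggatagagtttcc
Myf5 (chr10:106923191-106923440, minus strand): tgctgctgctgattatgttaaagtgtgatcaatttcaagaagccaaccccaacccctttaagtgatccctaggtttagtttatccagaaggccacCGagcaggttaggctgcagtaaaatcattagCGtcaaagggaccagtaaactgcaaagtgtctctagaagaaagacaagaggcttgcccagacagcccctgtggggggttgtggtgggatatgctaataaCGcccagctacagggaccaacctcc
The stretch held 7 CpGs at Tcf21, 6 at Tal1 and 15 at Hand2, against 23 at Twist2 and 3 at Myf5. The median over all protein-coding genes was 8. The genes with peaks were thus not those with the densest CpGs just before the start.

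Tcf21 encodes a bHLH factor of visceral mesenchyme and lies on the minus strand of chromosome 10 (22537085 to 22539934, mm9). Control cells had a peak of 13 kb there (22531001 to 22544000). The EZHIP peak was 4.4 kb (22535601 to 22540000) and the K27M peak 37.2 kb (22530401 to 22567600). The order was therefore EZHIP, Control, K27M, and the whole 2.85 kb gene body was covered in each list. The K27M peak differed from Control mostly on the upstream side, whereas the EZHIP peak was shorter on both sides. Upstream of the start the EZHIP peak reached 66 bp, the Control peak 4.07 kb and the K27M peak 27.7 kb. Downstream the EZHIP peak reached 4.33 kb, the Control peak 8.93 kb and the K27M peak 9.53 kb. The EZHIP start was inside its peak by less than 1 bin of 200 bp, the unit in which peaks were called. Of the 200 gene starts inside EZHIP peaks, 4 (2%) lay as close to an edge or closer.

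In Control there was a second peak upstream of Tcf21, outside the 5 kb window. It was 5.2 kb wide (22560801 to 22566000) and separated from the Tcf21 peak by 16.8 kb. The K27M peak spanned both Control peaks and the gap between them, whereas the EZHIP list had only the peak at the gene. Against the 18.2 kb that both Control peaks covered, the K27M peak was 2.04 times as wide, and 19 kb of it lay outside Control peaks. No annotated gene lay between the upstream edge of the K27M peak and Tcf21. The 37.2 kb peak ranked 19 by width among the 327 K27M peaks, while the Control peak ranked 87 of 289 and the EZHIP peak 183 of 255.

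Tal1, the blood and endothelial member, lies on the plus strand of chromosome 4 (114729031 to 114744360). The Control peak at its start was 4.8 kb wide (114727601 to 114732400), the EZHIP peak 9.6 kb (114725801 to 114735400) and the K27M peak 12.4 kb (114725401 to 114737800). Here the order was Control, EZHIP, K27M, unlike at Tcf21. The peaks widened on both sides of the start. Their upstream reach rose from 1.43 kb (Control) through 3.23 kb (EZHIP) to 3.63 kb (K27M), and their downstream reach was 3.37, 6.37 and 8.77 kb in the same order. All downstream edges fell in introns, and the peaks covered 22.0%, 41.6% and 57.2% of the gene body. The 4 annotated transcript starts of Tal1 lay inside the peak in every list. By width the Tal1 peak ranked 192 of 289 in Control, 97 of 255 in EZHIP and 129 of 327 among K27M peaks.

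Hand2, a factor of heart and limb development, lies on the plus strand of chromosome 8 (59799780 to 59803314). No peak was called near it in Control or EZHIP, where the nearest one was 3.59 Mb away in both lists. In K27M cells a peak of 9.6 kb (59790401 to 59800000) reached 9.38 kb upstream of the start and 220 bp into the gene, ending in the 5′ UTR of the first exon. The peak thus lay almost wholly before the gene and covered 6.25% of the gene body. Of the 267 gene starts inside K27M peaks, 8 (3.00%) were as close to an edge or closer. Hand2 was among 82 protein-coding genes (0.366%) whose start lay in a peak of the K27M list alone, while Tcf21 and Tal1 were among 147 (0.657%) with the start in a peak of every list. There were 51 K27M peaks with a gene start that overlapped no peak of the other lists. Their median width was 5.6 kb, with a range from 2.2 to 21 kb, and 11 of them were as wide as the Hand2 peak or wider, itself included.

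**Figure D2:**
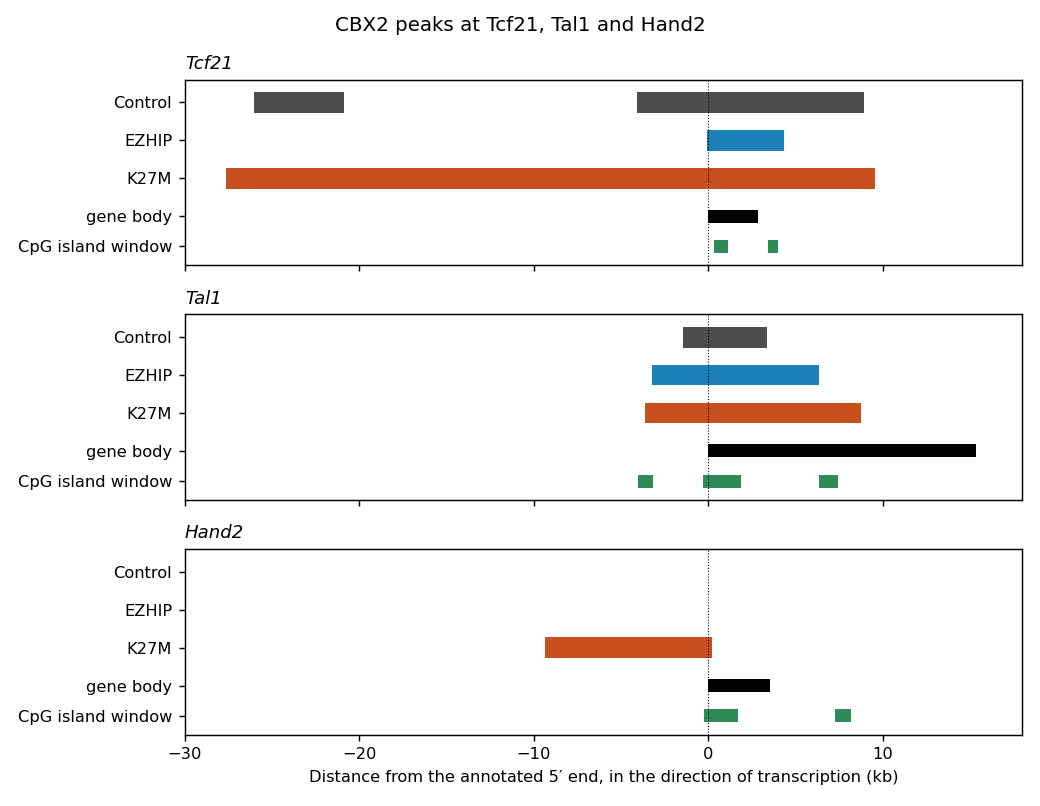
Horizontal bars show the CBX2 peaks of each list at Tcf21, Tal1 and Hand2 against the distance from the annotated 5′ end in kb, with the gene body in black and stretches of CpG island windows within 10 kb of the start or under a peak in green. The K27M peak at Tcf21 joins the 2 Control peaks, the Tal1 peaks are nested from Control to K27M, and the Hand2 peak of K27M ends just inside the gene.

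Sequence was matched to the peaks through CpG island windows, stretches of 500 bp in which G+C made up 55% or more and CpGs occurred at 0.65 times their expected number or more. Tcf21 had runs of such windows from 0.301 to 1.10 kb and from 3.40 to 4 kb downstream of the start, and both lay whole inside the peak of every list. The upstream part gained in K27M therefore held none. Tal1 had a run of 2150 bp across its start, whole in every list. It also had a run of 1100 bp from 6.35 to 7.45 kb downstream, of which Control covered 0 bp, EZHIP 20 bp and K27M all 1100 bp. Hand2 had a run of 1950 bp that began 250 bp before the start and continued into the gene. The K27M peak covered only 471 bp of it and otherwise extended away from it. Of 32-mers taken at steps of 100 bp under these peaks, 0 to 6.25% had an exact second copy in mm9. Inexact repeats were not counted.

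The widths at Tcf21 and Tal1 were set beside those of all Control peaks that overlapped a peak of the other list. In K27M the width ratio to Control was 2.86 at Tcf21 (1.52 on the log2 scale) and 2.58 at Tal1 (1.37), against a median log2 ratio of 0.32 over 229 matched peaks. Both exceeded 2, as did 23.1% of all matched peaks, so ratios of this size in K27M were common. Each Control peak was set against the full width of every peak overlapping it, so a peak spanning several Control peaks counted for each. The K27M peak at Tcf21 thus also entered at the second Control peak upstream, with a log2 ratio of 2.84. The share therefore mixes the joining of neighbouring Control peaks with the widening of single ones. In EZHIP the ratio was 0.338 at Tcf21 (-1.56 on the log2 scale) and 2 at Tal1 (1.00), against a median of -0.09 over 192 matched peaks. Narrowing to 0.5 times or less was found at 7.29% of matched peaks and widening to 2 times or more at 5.21%, so both genes stood near opposite ends of the EZHIP distribution. With 1 library per group it was not tested whether these differences exceed the spread between cultures. Both comparisons share the Control library.

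**Figure D3:**
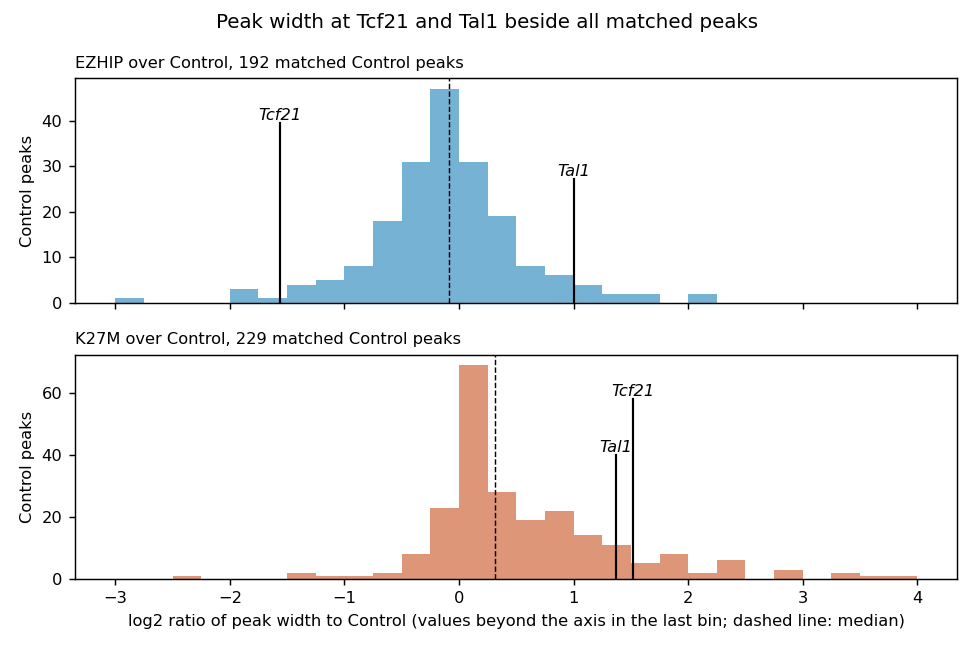
Histograms give the number of matched Control peaks by the log2 ratio of peak width in EZHIP (top) or K27M (bottom) to Control, with the median dashed and Tcf21 and Tal1 marked by solid lines. Tcf21 lies at -1.56 in EZHIP and 1.52 in K27M, and Tal1 at 1.00 and 1.37.

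The 2 genes typical of fibroblasts, Twist1 (chromosome 12, 34642536 to 34644682) and Twist2 (chromosome 1, 93698038 to 93744605), had no peak in any list. The 3 muscle genes, Myod1 (chromosome 7, 53631844 to 53634462), Myf5 (chromosome 10, 106919964 to 106923190) and Msc (chromosome 1, 14743427 to 14746047), had none either. Msc encodes musculin, a bHLH repressor of facial muscle progenitors. Since 1.49% of all protein-coding genes had a Control peak in the window, 1.44% an EZHIP peak and 1.78% a K27M peak, counts of 0 of 2 and 0 of 3 are near the background and do not separate or equate the fibroblast and the muscle genes. Hand1 (chromosome 11, 57642207 to 57646320) and Tcf15 (chromosome 2, 151969297 to 151974833) were also without peaks, so the paralogues Hand1 and Hand2 differed in the K27M list. Expression was not measured in these files, and a gene without a called peak may still bind CBX2 below the calling threshold.

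None of these 7 genes had a called peak near its 5 kb window. The nearest Control peak was 1.11 to 21.2 Mb away (median 4.43 Mb), the nearest EZHIP peak 1.11 to 15.7 Mb (median 3.19 Mb) and the nearest K27M peak 1.63 to 33.0 Mb (median 4.42 Mb). The medians over all protein-coding genes on chromosomes that held peaks were 3.71, 3.86 and 2.82 Mb. Hand1 had the nearest peaks of the 7 in Control and EZHIP, at 1.11 Mb and over the start of the histone gene Hist3h2ba. In K27M its nearest peak was 24.5 Mb away, over Tlx3. Myod1 was far from any peak, with the nearest at 15.7 Mb (EZHIP), 19.7 Mb (Control) and 33.0 Mb (K27M). Twist1 was also far from Control (21.2 Mb) and K27M peaks (23.0 Mb), but 3.19 Mb from the nearest EZHIP peak.

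CpG islands did not separate the genes with peaks from those without. A CpG island window lay within 1 kb of the start in 8 of the 10 genes, all but Hand1 and Myf5. Of the 12112 protein-coding starts with such a window, 1.4% were inside a Control peak, 1.4% inside an EZHIP peak and 1.85% inside a K27M peak. Within 5 kb of the start, island windows added up to 1.4 kb at Tcf21, 3 kb at Tal1 and 1.95 kb at Hand2. Among the genes without peaks they ranged from 0 kb at Myf5 to 2.75 kb at Hand1, and Twist1 (1.95 kb) equalled Hand2. The median over all protein-coding genes was 0.8 kb. Of the 1544 genes with 2 to 4 kb of island windows, 6.80% had the start in a Control peak, 6.48% in an EZHIP peak and 8.42% in a K27M peak. Among the 3 members in this class, Tal1, Hand1 and Twist2, only Tal1 was in a peak. Of the 11254 genes that had island windows but less than 2 kb of them, the shares were 0.524% (Control), 0.560% (EZHIP) and 0.791% (K27M), and this class held Tcf21 and Hand2 with 4 members that had no peak. Myf5, with no island window, fell in neither class.

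**Figure D4:**
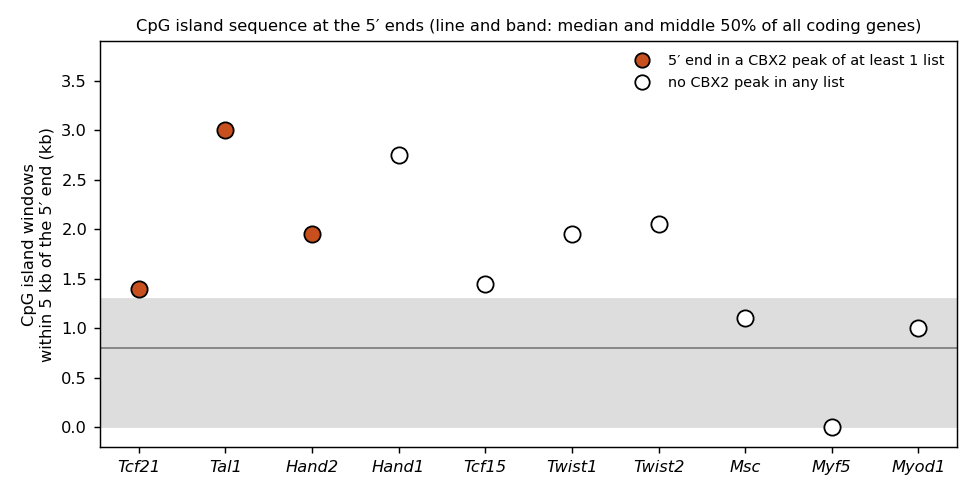
Points give the length of CpG island windows within 5 kb of the 5′ end of each gene in kb, filled where the 5′ end lay in a CBX2 peak of at least 1 list and open where no list had a peak. The line is the median (0.8 kb) and the band the middle 50% of all protein-coding genes, and open points lie both above and below filled ones.

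Lists of partners and relatives of these factors were counted in the same way. With 1.44 to 1.78% of all protein-coding genes having a peak in the window, counts of 0 or 1 are near the background in lists of this size. None of the 7 E protein and Id genes had its start inside a peak. Id3 alone had a peak in its window, an EZHIP peak of 2.6 kb that began 189 bp downstream of its start. Of 10 other bHLH genes of mesoderm, muscle and blood, among them Myog, Myf6, Mesp1 and Lyl1, 0 had a peak in the window in any list. The same count was 0 of 14 muscle differentiation genes, such as Acta1, Des and Ckm, and 0 of 14 genes typical of fibroblasts, such as Col1a1, Vim and Pdgfra.

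Related families were compared with the mesodermal genes. Of 17 proneural and oligodendrocyte bHLH genes, the start of 4 lay inside a Control peak, of 3 inside an EZHIP peak and of 10 inside a K27M peak. The 6 with the start in a K27M peak alone were Neurog1, Neurod1, Neurod2, Atoh1, Olig1 and Ptf1a, and the start of Bhlhe22 lay in Control and K27M peaks. At Neurod2 every list had a peak in the window, but only the K27M peak contained the start, whereas Hand2 had no peak at all in the other lists. Hand2 was thus the single mesodermal gene of 10 with its start in K27M alone, beside 6 of 17 neural ones. Its place in K27M alone had been seen before the family was chosen, so these counts do not compare the families. Of 17 T-box genes, which include heart and limb regulators, the start lay inside a Control peak for 1 (Tbx20). It lay inside an EZHIP peak for 2 (Tbx20 and Tbx2), a K27M peak for 1 (Tbx20) and K27M alone for 0. Of all protein-coding starts, 0.903% fell within Control peaks, 0.894% within EZHIP peaks and 1.19% within K27M peaks. For K27M alone the share was 0.366%. At such shares, T-box counts of 0 or 1 among 17 genes are near the background, whereas the EZHIP count of 2 is above it. In the 5 kb window, 5 (Control), 4 (EZHIP) and 11 (K27M) proneural genes had a peak. The T-box counts were 3, 2 and 3 in the same order, and Tbx1 had a window peak in K27M alone. Of all protein-coding genes, 1.49% had a Control peak in this window, 1.44% an EZHIP peak and 1.78% a K27M peak. The window counts of both families were above these shares. The lists were chosen with earlier results known, so this excess is not evidence about the families. These differences between families were not tested.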

How the data were processed

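CBX2 ChIP-Seq peak lists of 1 Control, 1 EZHIP and 1 K27M library were used. According to the study's methods and the submitters' processing notes, the authors aligned reads to mm9 with Bowtie 1.0.0 and called broad peaks per library with MOSAiCS-HMM (FDR 0.1, maximum gap 10000, minimum size 1000, threshold 8). Joining across gaps can widen a peak over bins without signal. The deposited Control and EZHIP lists nevertheless held some neighbouring peaks closer than 10000 bp. Use of an input library and scaling before calling are not given in the sources used here. The deposited files hold chromosome, start and end, with no score, and every peak is a run of 200 bp bins. Positions are 1-based.

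Genes came from GENCODE vM1 and sequence from NCBIM37, the assembly of mm9, and no peak ended past a chromosome. The start was the outermost annotated 5′ end. Analyses used Python 3.11.15, numpy 2.4.6 and pysam 0.24.0, and the overlap, width and CpG island steps were tested on simulated data with known answers. CpG island windows were 500 bp long, in steps of 50 bp. With 1 library per group no p-value was computed.

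The members and gene lists were chosen with earlier results of these data known. All 10 members are named. From the proneural list 1 gene is not reported here and was left out of its counts. Genes of other lists are named where their start lay inside a peak in some lists and not in others, or as examples of a list with none. The second Control peak at Tcf21, the island runs, the 32-mer count, Id3, Tbx1, Tbx20 and the 5 printed sequences were chosen after the values were seen. Alternatives changed the flank, the overlap, the start, the minimum width, the joining of peaks and the number of peaks.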

Additional observations from a re-analysis of the deposited data

Results flagged for a closer look

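At Tcf21 the peak was narrower than Control in EZHIP and wider in K27M, with log2 width ratios of -1.56 and 1.52, that is, in opposite directions. Each direction rests on 1 library, both ratios share the Control library, and the difference was not tested. The second Control peak upstream is not part of these ratios, and with it the K27M ratio is 1.03 on the log2 scale.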

How the results depend on the processing

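The 8 settings gave 167 alternative values for 38 results. The values were counts, widths or distances, so none could change direction, and the log2 width ratios were not varied. Of the 167, 161 lay within 1.5 times the reported value, some of them 0 beside 0, and 6 lay beyond it. All 6 came from keeping only peaks of at least 5000 bp, which by construction removes the 4.8 kb Control peak at Tal1 (width then 0 kb) and the 4.4 kb EZHIP peak at Tcf21 (width then 0 kb). The number of genes with a peak in the window, and with the start inside one, then fell from 2 to 1 in Control and from 2 to 1 in EZHIP, while K27M kept 3. Of the reach values, 4 could not be given there because their peaks were removed. A flank of 0 or 10 kb, an overlap of at least 1000 bp, any transcript start, peaks within 1000 bp of the start, joining of peaks closer than 10000 bp, and the 255 widest peaks of each list left the values they applied to within 1.5 times those reported. Joining raised the gene starts inside peaks from 202 to 210 in Control and from 200 to 207 in EZHIP, with K27M unchanged at 267. The Control and EZHIP lists thus still held peaks closer than 10000 bp, with gene starts between them. The unchanged K27M count does not show whether that list held such peaks. How far this affected widths and width ratios was not tested. No gene of the Twist or muscle groups gained a peak under any setting. No paired analysis was possible because there was a single library of each kind, and for the same reason no library could be left out. The lists hold no score on which to raise the threshold. The unknown read depth limits every comparison of presence and width.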
